A study of Mus musculus with 8 samples.

Results

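The comparison is between mouse livers taken 90 min and 30 min after 1 dose of growth hormone (GH), in animals that had lost their own pituitary GH. It covers the genes whose deposited gene body FPKM (reads scaled by exon length and by sequencing depth) was 0.5 or more in either group, which were 10856 of the 24197 genes listed. All mice were hypophysectomized males of the outbred CD-1 strain, operated on at 7 weeks of age and 11 weeks old, per the labels. The groups were Hypox+GH 90 min and Hypox+GH 30 min, each given recombinant rat GH intraperitoneally at 125 ng per g of body weight. A Hypox group without GH, described both as untreated and as given vehicle, and a Hypox+GH 240 min group were used for the spread and for reading the time course. Each group held 2 libraries, and each library came from RNA of 4 pooled livers, so that the spread is that between pools. Per the sample titles the RNA was depleted of ribosomal RNA. The title of 1 Hypox library carries another prefix than all other libraries, and the titles do not say what the prefix means. Other pituitary hormones were also missing from these animals, and only liver RNA was measured. Near the limit, Cdc25a was inside with 0.5003 FPKM at 90 min and 0.3905 at 30 min, and Ceacam2 was outside with 0.4323 FPKM at 90 min and 0.4992 at 30 min.

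In hepatocytes, GH binds its receptor and activates the kinase JAK2, which phosphorylates the transcription factor STAT5b. STAT5b enters the nucleus, binds DNA motifs of the type TTCNNNGAA and switches on targets such as Igf1 and the feedback inhibitors Cish and Socs2. Intronic reads in total RNA come largely from unspliced transcripts and follow transcription closely, whereas exonic reads come mostly from spliced mRNA, whose level also depends on its lifetime.

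The 90 min libraries held 32083366 and 15935303 mapped reads, against 27002584 and 20584956 in the 30 min libraries. The libraries of a group are called the deeper and the shallower, and values are given in that order. Between 25.1% and 26.6% of mapped reads fell in exons and between 15% and 17.7% in introns over all 8 libraries. Levels below are CPM (reads scaled to the mapped reads of the library and between libraries), and are compared only within a gene. The shallower 30 min library stood apart. It held 19500 CPM of Rn45s, the ribosomal RNA precursor locus, against 6300 to 11900 CPM in the other 7 libraries, and its male-biased transcripts were high, as described further on. Several results are therefore given with and without the shallower library, and the rest only with both 30 min libraries. Without the shallower library the 30 min group is 1 library that is assumed to vary like the other groups. The deeper 30 min library stood apart in other sums. Its exonic reads summed over 20 acute phase genes were 4900 CPM, against 6220 to 8940 CPM in the other 7 libraries. Its intronic reads summed over 10 hepatocyte markers were 2880 CPM, against 1660 to 2340 CPM. Leaving out the shallower library therefore does not give a cleaner comparison. Summed exonic reads of 10 hepatocyte markers such as Alb and Ttr were 30400 and 30700 CPM at 90 min and 29700 and 29200 CPM at 30 min. None of the listed markers of T and NK cells, B cells, platelets, adipocytes or skeletal muscle reached the FPKM limit.

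Most members were near their 30 min level at 90 min. In the authors' mean FPKM, 9864 of the 10795 members above 0 in both groups (91.4%) were within 1.5-fold, 173 were at least 2-fold higher at 90 min and 139 were at least 2-fold lower. The intronic FPKM was more spread, with 84.3% within 1.5-fold, 238 at least 2-fold higher and 197 at least 2-fold lower. Of the members, 10477 had enough exonic reads and 9618 enough intronic reads to be tested. In exonic reads, limma called 0 members at an adjusted p under 0.05, and 0.0% of all 13170 genes tested. At an unadjusted p under 0.05 there were 501 members higher and 505 lower, where the background over all genes was 4.4% higher and 4.4% lower. limma-voom also called 0 genes and had 1018 at an unadjusted p under 0.05. In 2238 members both 90 min libraries lay above both 30 min libraries and in 2196 they lay below, against 20.6% and 20.1% of all genes. Without the shallower 30 min library, 22 members were called higher (0.167% of all genes) and 9 lower (0.0683% of all genes) in exonic reads.

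In intronic reads, 8 members passed the test, out of 9 genes called in all, or 0.0733% of the 12271 tested. Of the 7 described here, Tacc2 and Rassf4 rose by 2.72-fold and 2.43-fold, and Abcg5, Mug1, Dpys, Hfe2 and Zfand4 fell by 2.64-fold to 3.19-fold. In all 7 genes the libraries of both times stood clear of each other, which being called largely implies and which is no further result. At an unadjusted p under 0.05, 425 members were higher and 616 lower, against a background of 4.17% and 6.16%. Both 90 min libraries lay above both 30 min libraries in 2054 members and below in 1949, against 20% and 20.6% of all genes. Without the shallower 30 min library the calls grew to 65 members higher (0.57% of all genes) and 105 lower (0.864% of all genes). All 9 genes called with it were among the 176 called over all genes without it.

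Tacc2, which encodes a coiled-coil protein of centrosomes and microtubules (mm9 chr7:137720998-137908298), had the smallest p. It held 170 and 174 intronic CPM at 90 min, against 65.5 and 61.0 CPM at 30 min. The difference was 1.45 ± 0.16 (log2 fold change ± limma's standard error, 2 libraries each) with an adjusted p of 0.0248. Its Hypox libraries held 128 and 107 CPM and its 240 min libraries 57.7 and 58.0 CPM, so that the 90 min level stood above all other libraries of the series. Its exonic reads lay on the same side, with 32.8 and 45.3 CPM at 90 min and 18.9 and 15.9 CPM at 30 min, but did not pass the test (1.15 ± 0.27, adjusted p = 0.263).

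Rassf4, a member of the Ras association domain family (mm9 chr6:116583026-116623854), held 7.72 and 8.84 intronic CPM at 90 min, against 3.36 and 3.34 CPM at 30 min. The log2 fold change was 1.28 ± 0.18 with an adjusted p of 0.0406. In Rassf4 and Tacc2 alike, both 30 min libraries lay below both Hypox libraries. The same held for 5 further genes named for higher intronic reads. These were Rcan2, a calcineurin regulator, Marco, a scavenger receptor of macrophages, Gbp2, an interferon-induced GTPase, Pcx, the pyruvate carboxylase of gluconeogenesis, and Fgr, a Src family kinase of myeloid cells, and their adjusted p ran from 0.0646 to 0.0903. All of these genes were picked for lower reads at 30 min than at 90 min, so that lying below Hypox was partly built in. The share over all genes was not counted. For the 12 genes named for higher exonic reads, both 30 min libraries lay below both Hypox libraries in 5, above in 4 and overlapped in 3. In the authors' deposited table, the intronic ratio of Rassf4 to Hypox was 0.366 at 30 min and 0.903 at 90 min.

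Of the 5 genes that fell, Abcg5, Mug1, Dpys and Hfe2 are known as hepatocyte genes. Abcg5, which carries sterols into bile (mm9 chr17:85057574-85082263), held 2.14 and 1.61 intronic CPM at 90 min, against 5.13 and 7.35 CPM at 30 min. The difference was -1.67 ± 0.23 with an adjusted p of 0.0406. Mug1, a secreted protease inhibitor (mm9 chr6:121788559-121839075), held 21.2 and 21.4 intronic CPM at 90 min, against 84.8 and 53.9 CPM at 30 min (-1.66 ± 0.24, adjusted p = 0.0406). Its near copy Mug2 held 24.5 and 20 CPM at 90 min and 94.9 and 63.9 CPM at 30 min (-1.81 ± 0.29, adjusted p = 0.0646), and the pair may share reads. Dpys, the dihydropyrimidinase of pyrimidine breakdown (mm9 chr15:39600031-39689016), held 19 and 19.7 intronic CPM at 90 min, against 61.9 and 47.7 CPM at 30 min (-1.49 ± 0.21, adjusted p = 0.0406). Hfe2, the BMP co-receptor hemojuvelin of iron control (mm9 chr3:96329108-96333139), held 2.02 and 1.67 CPM at 90 min, against 5.66 and 4.64 CPM at 30 min (-1.43 ± 0.21, adjusted p = 0.0459). Zfand4, a zinc finger protein gene (mm9 chr6:116214237-116280322), held 5.59 and 5.08 CPM at 90 min, against 13.4 and 15 CPM at 30 min (-1.40 ± 0.19, adjusted p = 0.0406). In exonic reads 0 of these 5 passed the test. Mug1 held 571 and 553 exonic CPM at 90 min, against 569 and 684 CPM at 30 min, and in Abcg5 the exonic libraries of the groups overlapped as well. In Dpys, Hfe2 and Zfand4 both 90 min libraries lay below both 30 min libraries in exons too, with log2 fold changes of -0.32 ± 0.12, -0.86 ± 0.25 and -0.58 ± 0.19 (adjusted p = 0.465, 0.333 and 0.388). Hfe2 held 12.1 and 6.58 exonic CPM at 90 min, against 17.4 and 15.3 CPM at 30 min. At 240 min the exonic reads of Abcg5 were 5.64 and 7.00 CPM, below every earlier library.

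**Figure D1:**
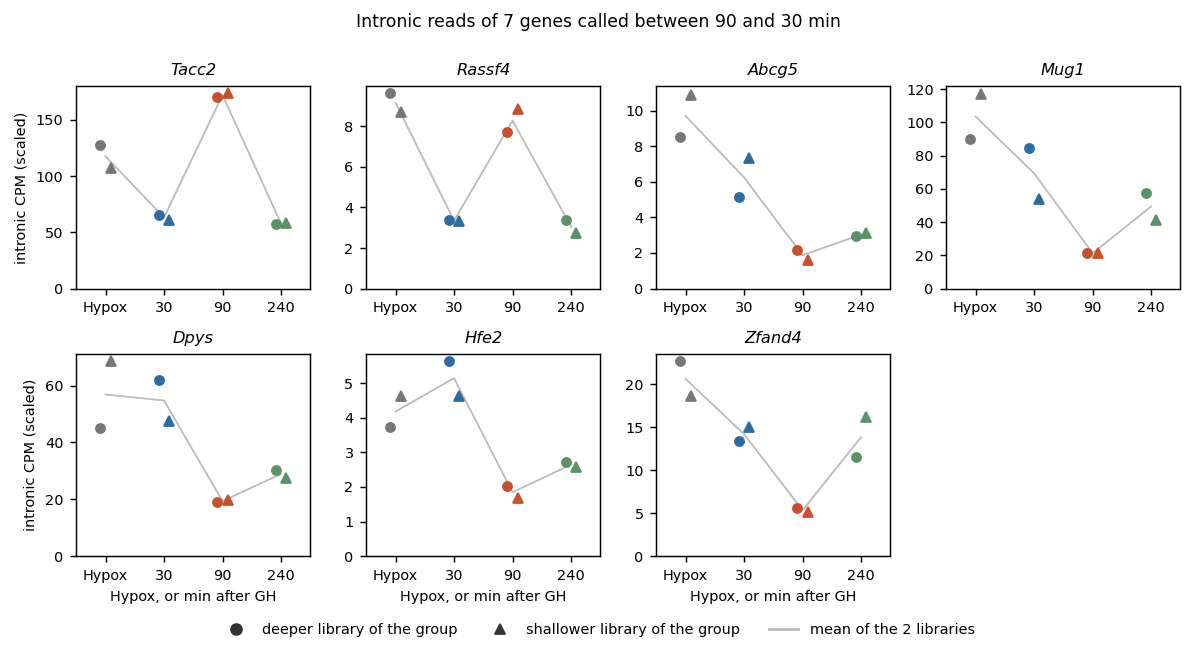
Intronic CPM (scaled, linear axis from 0) of 7 of the 8 genes called between 90 and 30 min, in the order Hypox, 30, 90 and 240 min on the x axis. Circles and triangles are the deeper and shallower library of each group and the grey line joins the group means. Tacc2 and Rassf4 were low at 30 min and high at 90 min, while the other 5 were lowest at 90 min.

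The calls depended on both 90 min libraries. Without either 90 min library 0 intronic genes were called, with the adjusted p of the 7 genes at 0.101 to 0.111 without the deeper one and at 0.268 to 0.334 without the shallower one, and Tacc2 was the 1 gene that limma-voom called. Without the deeper 30 min library 3 of the 9 were called, and without the shallower one all 9. Intronic reads in a gene such as Hfe2 were few, between 28 and 150 in each library of both times.

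In the GH, STAT5 target and feedback list 0 genes were called in exonic or intronic reads. Of 17 members tested in introns, 1 was higher and 0 lower at an unadjusted p under 0.05, with a median log2 fold change of 0.14. Of 18 members tested in exons, 6 were higher and 0 lower at an unadjusted p under 0.05. Their median log2 fold change was 0.30, against 0.0 over all members. The 6 were Cish, Socs1, Pim1, Pim3, Onecut1 and Prlr. Without the shallower 30 min library 7 were higher and 1 lower. Cish, a feedback inhibitor of GH receptor signalling, held 15.7 and 14.9 exonic CPM at 90 min, against 4.05 and 10.3 CPM at 30 min, with 0.546 and 1.38 CPM in Hypox. Both 90 min libraries lay above both 30 min libraries, and the difference did not pass the test (1.23 ± 0.42, adjusted p = 0.402). Its intronic reads overlapped, with 7.82 and 8.42 CPM at 90 min and 4.53 and 8.37 CPM at 30 min. The promoter window of Cish and that of Icam1, the gene with the lowest exonic p, are shown because each holds the motif TTCNNNGAA, searched on both strands. The sequences are from RefSeq (GRCm38.p6), both on the plus strand, chr9:107296409-107296708 for Cish and chr9:21015690-21015989 for Icam1, and capitals mark the motif.
Cish: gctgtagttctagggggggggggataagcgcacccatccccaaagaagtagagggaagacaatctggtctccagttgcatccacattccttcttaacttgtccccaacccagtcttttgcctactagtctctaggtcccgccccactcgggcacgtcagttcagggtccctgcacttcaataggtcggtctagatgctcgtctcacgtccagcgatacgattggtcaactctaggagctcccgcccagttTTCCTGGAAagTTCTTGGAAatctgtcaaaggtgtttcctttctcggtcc
Icam1: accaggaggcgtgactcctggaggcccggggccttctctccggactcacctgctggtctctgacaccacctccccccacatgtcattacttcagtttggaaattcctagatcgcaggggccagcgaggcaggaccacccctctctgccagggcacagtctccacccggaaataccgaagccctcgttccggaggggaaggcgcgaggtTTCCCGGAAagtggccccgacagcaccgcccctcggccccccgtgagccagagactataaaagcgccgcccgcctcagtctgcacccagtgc
The motif starts at positions 251 and 262 of the 300 bases for Cish, counted from the window's first base, and at position 209 for Icam1. It was in 2726 of all 32851 promoter windows (8.3%), in 1 of 10 windows found for the 12 genes named for higher exonic reads, and in 0 of 7 windows found for 5 of the 8 genes called in introns. The E-box motif CACGTG was in 7.15% of all windows and in 1 of the same 10, that of Onecut1.

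Socs1, which blocks JAK kinases, held 6.98 and 2.77 exonic CPM at 90 min, against 0.846 and 2.01 CPM at 30 min, and both values at 90 min were above the rest of the series. Pim3, a serine/threonine kinase gene, held 44.2 and 43.5 CPM at 90 min, against 17.3 and 23.2 CPM at 30 min (1.13 ± 0.18, adjusted p = 0.129). Pim1, its relative, held 16.9 and 10.8 CPM at 90 min, against 4.12 and 8.80 CPM at 30 min. Onecut1, the hepatocyte factor HNF6, held 29.8 and 33.1 CPM at 90 min, against 11.2 and 19.3 CPM at 30 min (1.09 ± 0.21, adjusted p = 0.178). Of the 12 other members, Jak2, which encodes the kinase of the GH receptor, lay above in both 90 min libraries with a log2 fold change of 0.17, and 11 overlapped between the times. Socs2 held 15.5 and 21.6 CPM at 90 min, against 3.90 and 18.9 CPM at 30 min. Igf1, the main endocrine product of GH action in liver, held 97.4 and 98.1 exonic CPM at 90 min, against 57.2 and 126 CPM at 30 min, and its intronic reads were level at 272 and 298 CPM at 90 min and 281 and 289 CPM at 30 min. Socs3, Igfals, Bcl6 and Myc overlapped between the times too, with log2 fold changes of -0.12 to 0.29. The 30 min pools differed from each other in these genes: the shallower one held more Cish, Socs2, Igf1 and Onecut1 than the deeper one. Without the shallower one, the log2 fold changes of Onecut1 and Pim3 were 1.48 and 1.34, and without the deeper one 0.69 and 0.91. In Socs2 and Nrep too, the deeper 30 min library held less than the shallower one and lay further from the 90 min libraries. Nrep, which is outside the list and had its highest reads at 240 min (34.3 and 26 CPM), held 13.4 and 14.5 exonic CPM at 90 min, against 3.38 and 7.90 CPM at 30 min.

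**Figure D2:**
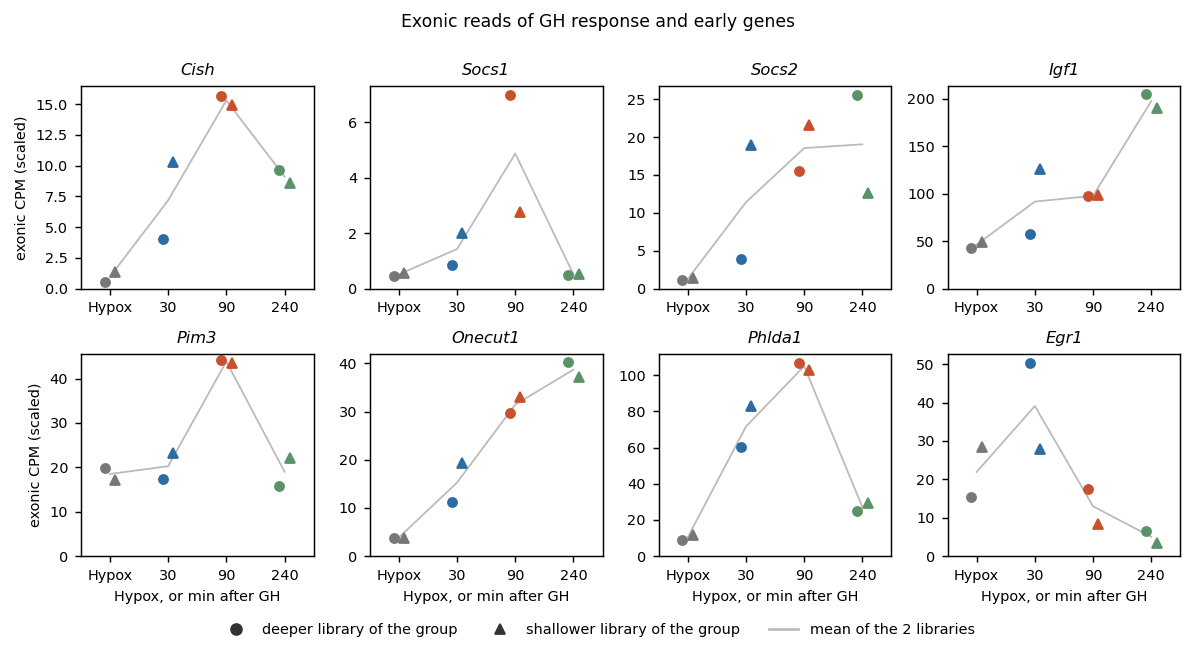
Exonic CPM (scaled, linear axis from 0) of GH response and early genes in Hypox and at 30, 90 and 240 min after GH. Circles and triangles are the deeper and shallower library of each group and the grey line joins the means. Pim3, Phlda1, Cish and Socs1 had their highest group mean at 90 min, Egr1 at 30 min.

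Early response genes went both ways. Of 20 members tested in exonic reads, 5 were higher and 1 lower at an unadjusted p under 0.05, and the median was 0.10, while without the shallower 30 min library 4 were higher and 5 lower. Egr1, an immediate early zinc finger factor, held 17.5 and 8.42 exonic CPM at 90 min, against 50.4 and 27.8 CPM at 30 min (-1.62 ± 0.42, adjusted p = 0.307). Fos held 1.71 and 1.41 CPM at 90 min, against 6.14 and 1.75 CPM at 30 min. Fosl2, an AP-1 subunit, held 18.2 and 21.4 CPM at 90 min, against 8.64 and 10.8 CPM at 30 min (1.03 ± 0.18, adjusted p = 0.170). Phlda1, of the MAPK feedback list, held 107 and 103 CPM at 90 min, against 60.2 and 83.0 CPM at 30 min, with 9.05 and 11.6 CPM in Hypox. 

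Among NF-kB target genes and chemokines, 0 were called in either kind of read. Of 15 members tested in exonic reads, 8 were higher and 0 lower at an unadjusted p under 0.05 (median 0.36), and of 14 tested in intronic reads 7 were higher and 0 lower (median 0.65, against 0.01 over all members). Without the shallower 30 min library the counts were 8 and 6 higher, and 0 lower. Icam1, an adhesion molecule that binds leukocytes, held 11.7 and 11.5 exonic CPM at 90 min, against 5.70 and 4.98 CPM at 30 min (1.10 ± 0.14, adjusted p = 0.103). Its Hypox libraries held 15 and 13.1 CPM. In the authors' deposited table its gene body ratio to Hypox was 0.383 at 30 min, 0.833 at 90 min and 0.555 at 240 min. Il1b, the cytokine interleukin 1 beta, held 7.85 and 5.17 CPM at 90 min, against 2.06 and 2.39 CPM at 30 min (1.48 ± 0.22, adjusted p = 0.129). Ccl2, a monocyte chemokine, held 1.65 and 1.91 CPM at 90 min, against 0.331 and 0.530 CPM at 30 min. Tlr2, a receptor for bacterial lipoproteins that is outside the list, held 2.68 and 4.12 CPM at 90 min, against 1.07 and 1.17 CPM at 30 min. Tnfaip3 and Bcl3, regulators of NF-kB signalling, had log2 fold changes of 1.16 ± 0.32 and 1.10 ± 0.25 in exonic reads. In Icam1, Il1b, Ccl2 and Tlr2 both 30 min libraries lay below both Hypox libraries. Icam1, Il1b and Tlr2 were picked for lower reads at 30 min than at 90 min, and Ccl2 after its values were seen. Lying below Hypox was therefore partly built in, and the share over all genes was not counted. Low levels were not confined to 30 min. The deposited gene body ratio of Il1b to Hypox was 0.409 at 30 min, 1.24 at 90 min and 0.239 at 240 min. Exonic reads summed over the 20 listed genes were 250 and 233 CPM in Hypox and 197 and 214 CPM at 30 min. They were 261 and 235 CPM at 90 min and 137 and 138 CPM at 240 min.

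Markers of neutrophils were read beside these genes. Of 9 listed, 5 were members and 4 of those were tested. S100a8, S100a9 and Csf3r were higher at an unadjusted p under 0.05, with log2 fold changes of 1.38 to 2.45, and Cxcr2 differed by 0.16. Csf3r, the granulocyte colony-stimulating factor receptor, held 6.04 and 3.87 exonic CPM at 90 min, against 1.32 and 2.44 CPM at 30 min. Exonic reads summed over the 9 markers were 18.8 and 13.1 CPM at 90 min and 6.22 and 9.33 CPM at 30 min, with 10.5 and 12 CPM in Hypox, and none of the 9 was at 0 in all 4 libraries of the times compared. Summed exonic reads of Kupffer cell markers were 106 and 77.8 CPM at 90 min and 102 and 88.1 CPM at 30 min. In introns, Marco was the 1 of 9 tested Kupffer cell markers that was higher at an unadjusted p under 0.05, and 2 were lower (median -0.03). In whole liver, fewer cells of a type and less RNA per cell cannot be told apart, and the part of the neutrophil reads in the values of Il1b, Fgr and Tlr2 was not tested.

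Interferon-stimulated genes included 5 of 13 members higher and 0 lower in exonic reads at an unadjusted p under 0.05. Their median was 0.49, and 0.37 without the shallower 30 min library. In introns 1 of 12 was higher and 0 lower, with a median of 0.17. Summed exonic reads of the 22 listed genes were 199 and 129 CPM at 90 min and 122 and 114 CPM at 30 min, with 121 and 150 CPM in Hypox. Stat2, a factor of interferon signalling, held 31.7 and 30.4 CPM at 90 min, against 19.5 and 20.4 CPM at 30 min (0.64 ± 0.16, adjusted p = 0.281). Acute phase genes were split by the 30 min pools. With both pools 4 of 20 were higher, and the median log2 fold change was 0.30 with the shallower one and 0.68 without it. The larger median rests on the deeper pool. Summed exonic reads were 7940 and 7980 CPM at 90 min, against 4900 and 7690 CPM at 30 min. Steap4, a metalloreductase, held 186 and 210 exonic CPM at 90 min, against 61.0 and 128 CPM at 30 min. 

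Some genes of ribosome biogenesis had higher values at 90 min, and 0 were called. Of 33 members tested in introns 9 were higher and 0 lower at an unadjusted p under 0.05 (median 0.40), and of 34 tested in exons 7 were higher and 0 lower (median 0.22). The counts without the shallower 30 min library were 7 higher in introns and 4 in exons, and 0 lower. Nop58, a core protein of box C/D small nucleolar particles, held 12.7 and 11.5 exonic CPM at 90 min, against 5.78 and 7.63 CPM at 30 min (0.85 ± 0.16, adjusted p = 0.178). Nop2, which methylates ribosomal RNA, held 3.79 and 4 intronic CPM at 90 min, against 1.93 and 1.92 CPM at 30 min (0.98 ± 0.24, adjusted p = 0.155), while its exonic reads differed by 0.31 ± 0.19. At 240 min the exonic level of Nop58 was higher again, at 19.3 and 20.9 CPM. Endoplasmic reticulum folding genes showed the same order of intron and exon, with intronic and exonic medians of 0.40 and -0.04 over 19 members each, and 3 members higher in introns, or 1 without the shallower 30 min library. Dnajb9, a co-chaperone of the folding compartment, held 1.5 and 2.21 intronic CPM at 90 min, against 0.981 and 0.735 CPM at 30 min.

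In fatty acid and triglyceride synthesis 0 genes were called. Of 20 members tested in exonic reads, 11 were lower and 0 higher at an unadjusted p under 0.05, with a median of -0.38, and 12 were lower and 0 higher without the shallower 30 min library. G0s2, which inhibits the lipase of lipid droplets, held 1.28 and 0.799 CPM at 90 min, against 6.81 and 2.81 CPM at 30 min (-2.01 ± 0.35, adjusted p = 0.170). Thrsp, a lipogenic protein that responds to thyroid hormone, held 9.75 and 5.29 CPM at 90 min, against 22.1 and 15.4 CPM at 30 min (-1.35 ± 0.25, adjusted p = 0.178). Fasn, the fatty acid synthase, held 99.2 and 84.6 CPM at 90 min, against 192 and 157 CPM at 30 min (-0.92 ± 0.18, adjusted p = 0.184). Its intronic reads overlapped, with 5.53 and 3.16 CPM at 90 min and 5.81 and 3.90 CPM at 30 min, whereas those of Me1, which supplies NADPH, lay lower in both pools with 9.16 and 6.93 CPM at 90 min and 13.1 and 24 CPM at 30 min. The phosphatidate phosphatase gene Lpin2 held 36.9 and 34.3 exonic CPM at 90 min, against 69.2 and 50 CPM at 30 min. In G0s2 and Lpin2 the deeper 30 min library lay further from the 90 min libraries than the shallower one.

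Cholesterol synthesis genes had 8 of 20 members lower and 1 higher in exonic reads (median -0.39), but 1 lower and 1 higher in introns (median 0.02), at an unadjusted p under 0.05. Insig1, a sterol-sensing brake on SREBP, held 79.8 and 62.7 exonic CPM at 90 min, against 157 and 115 CPM at 30 min (-0.92 ± 0.17, adjusted p = 0.178), and 7.05 and 4.12 intronic CPM at 90 min, against 4.38 and 6.16 CPM at 30 min. Fdps, a prenyl diphosphate synthase, held 16.2 and 10 exonic CPM at 90 min, against 22.6 and 28.8 CPM at 30 min, and Sqle, the squalene epoxidase, 5.76 and 3.14 CPM at 90 min, against 7.95 and 10.7 CPM at 30 min.

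**Figure D3:**
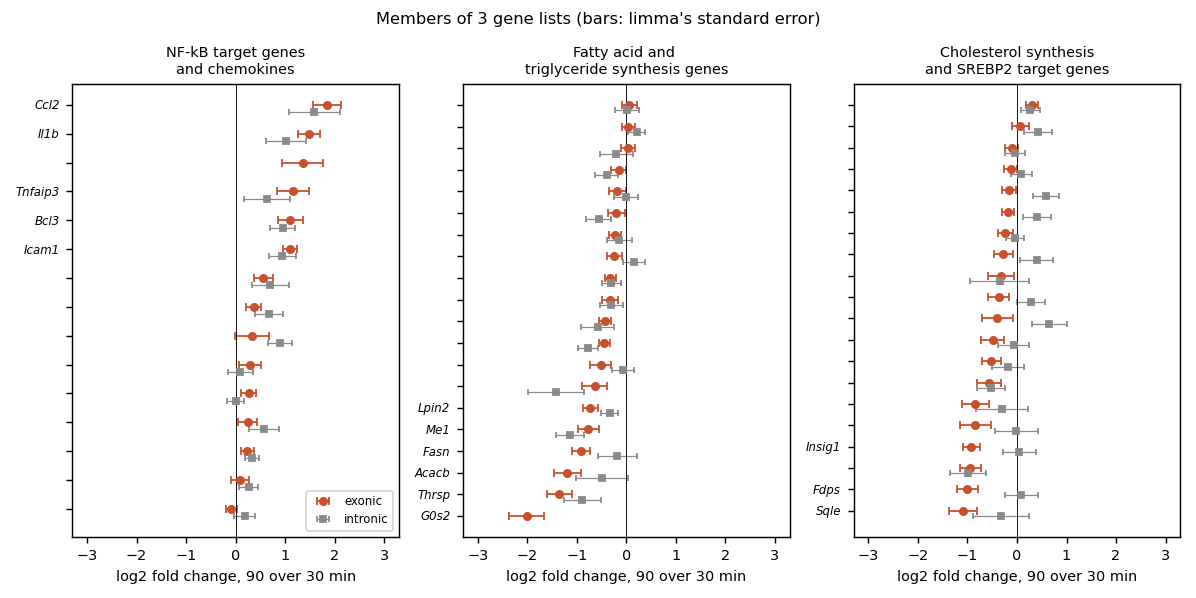
Log2 fold change of 90 over 30 min (x axis) for the tested members of 3 gene lists, with limma's standard error as bars, exonic reads in orange circles and intronic reads in grey squares. Genes described in the text carry their name. NF-kB targets lay mostly right of 0 in both kinds of read. Cholesterol synthesis genes lay mostly left of 0 in exonic reads and around 0 in intronic reads.

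Gluconeogenesis and FOXO target genes had 7 of 18 members lower and 1 higher in exonic reads at an unadjusted p under 0.05 (median -0.39), and 9 lower without the shallower 30 min library. G6pc, the glucose-6-phosphatase, held 8.88 and 4.73 CPM at 90 min, against 45.0 and 20.4 CPM at 30 min (-2.21 ± 0.57, adjusted p = 0.305), and the Hypox libraries at 6.18 and 24.7 CPM were as far apart. Pck1 overlapped, with 207 and 181 CPM at 90 min and 304 and 187 CPM at 30 min. Igfbp1, which binds IGF1, held 3.18 and 2.28 exonic CPM at 90 min, against 5.92 and 5.67 CPM at 30 min, while its Hypox libraries held 18.7 and 18.1 CPM. Its intronic reads were at 0.489 and 0.179 CPM at 90 min and 0.302 and 0.283 CPM at 30 min, far under the 8.35 and 7.56 CPM of Hypox. In introns 2 of 17 tested members of the list were higher and 1 lower at an unadjusted p under 0.05, with a median of 0.05. Pcx was higher in introns, with 358 and 381 CPM at 90 min and 134 and 207 CPM at 30 min (1.15 ± 0.22, adjusted p = 0.0903). The exonic reads of Pcx differed by 0.14 ± 0.13. Among glycogen genes 5 of 14 members were lower and 1 higher in exons, led by the glycogen-targeting phosphatase subunits. Ppp1r3b held 42.4 and 21.2 CPM at 90 min, against 119 and 50 CPM at 30 min, and Ppp1r3c held 11.5 and 8.61 CPM at 90 min, against 27.3 and 15.9 CPM at 30 min.

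Several genes typical of hepatocytes had their lower values at 90 min in introns. Among 10 hepatocyte markers, 3 were lower and 0 higher in intronic reads at an unadjusted p under 0.05 (median -0.36), and 0 were lower or higher in exonic reads (median 0.03). Leaving out the shallower 30 min library gave an intronic median of -0.64, which rests on the deeper one. Summed intronic reads of the 10 markers were 1660 and 1880 CPM at 90 min, against 2880 and 2020 CPM at 30 min. Ass1, of the urea cycle, held 25.3 and 25.7 intronic CPM at 90 min, against 73.2 and 42.2 CPM at 30 min (-1.12 ± 0.25, adjusted p = 0.124). Of the PPARA targets, Acaa1b, a peroxisomal thiolase, held 13.6 and 13.9 intronic CPM at 90 min, against 67.3 and 29.5 CPM at 30 min (-1.69 ± 0.29, adjusted p = 0.0646). Of the bile acid and transport genes, Abcb4, the phospholipid exporter of bile, held 9.80 and 9.02 intronic CPM at 90 min, against 29.7 and 18 CPM at 30 min (-1.29 ± 0.22, adjusted p = 0.0646). Slco1a4, an organic anion carrier, held 24.2 and 22.3 intronic CPM at 90 min, against 85.3 and 45.4 CPM at 30 min, while its exonic reads were higher in both 90 min libraries, at 153 and 164 CPM against 129 and 117 CPM at 30 min. In the introns of Acaa1b, Abcb4, Ass1 and Slco1a4 the deeper 30 min library lay further from the 90 min libraries than the shallower one. Leaving out the shallower one therefore widens these differences, and leaving out the deeper one narrows them. Gstt1, a glutathione transferase, and Cryl1, an enzyme of glucuronate breakdown, were lower in introns with log2 fold changes of -1.10 ± 0.17 and -1.16 ± 0.18 (adjusted p = 0.0615 each).

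Among genes with low reads at 90 min, some had most of their 30 min reads in 1 library. Mup10, a major urinary protein gene, held 0.249 and 0.0 exonic CPM at 90 min, against 4.64 and 83.0 CPM at 30 min, with 1.24 and 12.6 CPM in Hypox. Gm2083 and the pseudogene Serpina4-ps1 had the same pattern, with 72.6 and 39.4 CPM in the shallower 30 min library. The log2 fold changes of Mup10, Gm2083 and Serpina4-ps1 were -6.73, -6.57 and -5.66 with both 30 min libraries and -4.66, -4.53 and -3.72 without the shallower one, and did not pass the test in either case (adjusted p = 0.150 to 0.291). Without the deeper 30 min library all 3 passed, at -8.80, -8.60 and -7.60. Mup genes are nearly identical in sequence, so that reads of Mup10 and Gm2083 cannot be assigned with certainty. Male-biased liver genes as a list had 9 of 24 members lower and 1 higher in exonic reads (median -0.36), and 3 lower and 1 higher without that library (median -0.04). Their summed exonic reads were 543 and 506 CPM at 90 min and 464 and 928 CPM at 30 min. Acacb, the mitochondrial acetyl-CoA carboxylase, held 5.51 and 4.61 CPM at 90 min, against 8.20 and 16.4 CPM at 30 min.

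The other genes named for exonic reads did not pass the test. They were picked among genes whose libraries did not overlap between the times, so that their separation is not a result. Of all genes tested, 20.6% lay above and 20.1% below in this way. Tgm2, transglutaminase 2, held 101 and 119 exonic CPM at 90 min, against 39.7 and 52.5 CPM at 30 min (1.26 ± 0.17, adjusted p = 0.105), and its intronic reads were at 110 and 56.0 CPM at 90 min, 34.9 and 40.8 CPM at 30 min and 19.2 and 21.5 CPM in Hypox. Sybu, which encodes the microtubule linker syntabulin, held 12.9 and 13 exonic CPM at 90 min, against 2.54 and 4.98 CPM at 30 min (1.83 ± 0.30, adjusted p = 0.141). Arid5a, which binds and stabilizes inflammatory mRNAs, held 16.7 and 17.1 CPM at 90 min, against 3.46 and 8.48 CPM at 30 min (1.62 ± 0.34, adjusted p = 0.216). At 240 min Arid5a held 2.04 and 1.64 CPM, near its 2.76 and 1.92 CPM in Hypox, and Sybu held 3.86 and 4.27 CPM. Sav1, a Hippo pathway scaffold, and Abhd17b, a depalmitoylating enzyme, had log2 fold changes of 1.06 ± 0.22 and 1.28 ± 0.28. On the lower side, Kcnk5, a potassium channel, Sgk2, a kinase, Rnf152, a ubiquitin ligase, Sdr9c7, a dehydrogenase of the short-chain family, and Col5a3, a collagen chain, differed by -1.06 to -1.40.

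**Figure D4:**
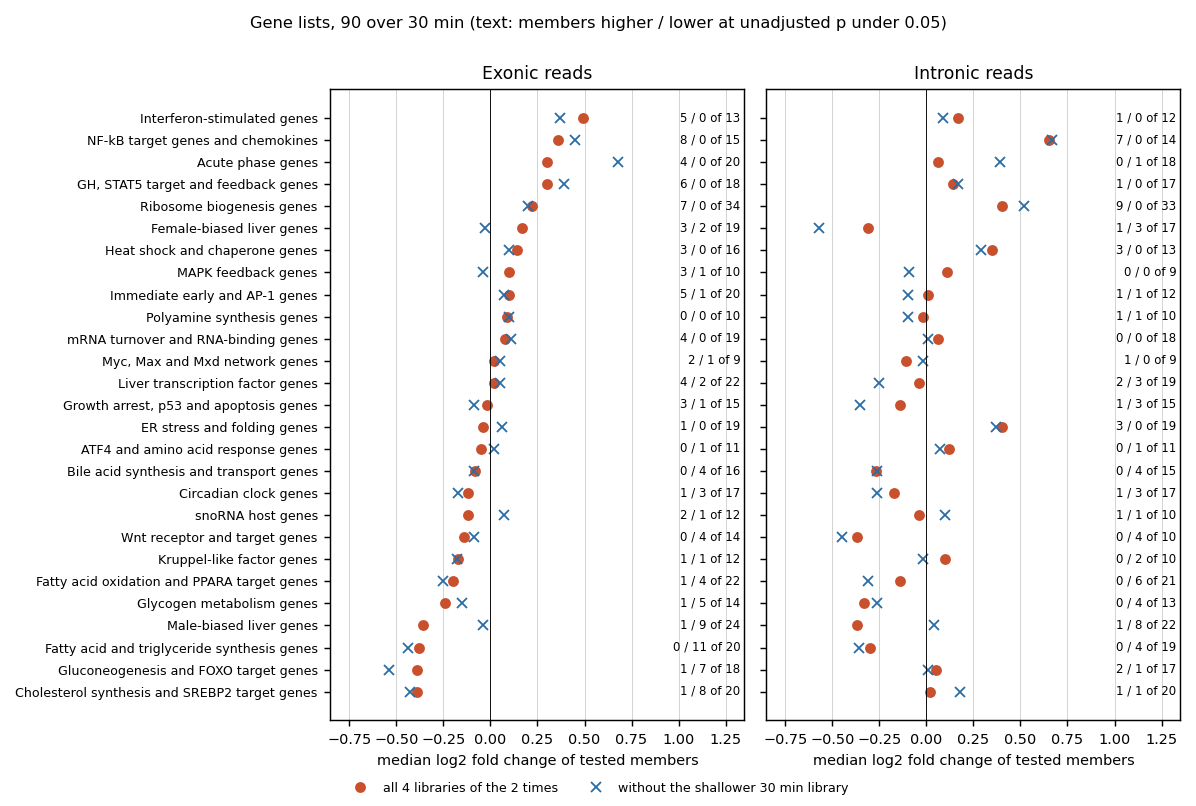
Median log2 fold change of 90 over 30 min (x axis) over the tested members of 27 gene lists (y axis), for exonic reads at left and intronic reads at right. Red circles use all libraries, blue crosses leave out the shallower 30 min library, and the numbers at the right edge count members higher and lower at an unadjusted p under 0.05. NF-kB and interferon lists lay highest in exonic reads at 0.36 and 0.49, and the cholesterol and gluconeogenesis lists lowest at -0.39.

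Exonic and intronic changes of a gene tended to share their sign. Over 9614 members tested in both, 6209 had the same sign, and across genes the Pearson correlation of the log2 fold changes was 0.51 and Spearman's 0.42. Both kinds of read come from the same libraries and genes are not independent replicates, so these are descriptions. At an unadjusted p under 0.05 in each, 130 members were higher in both kinds, 136 lower in both and 3 opposite. The exonic over intronic ratio within libraries was called different in 0 members and in 0.0% of all 11503 genes tested. At an unadjusted p under 0.05, 488 members had a higher ratio at 90 min and 389 a lower one, against 4.93% and 3.75% of all genes. Among the 5 genes that fell in introns, the ratio differed by 1.51 in Mug1, 1.32 in Abcg5, 1.16 in Dpys, 0.82 in Zfand4 and 0.57 in Hfe2, in log2 units. None passed (adjusted p = 0.228 to 0.498). These genes were picked for their falls in introns, and the intronic reads enter the ratio. A higher ratio at 90 min was therefore partly built in.

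**Figure D5:**
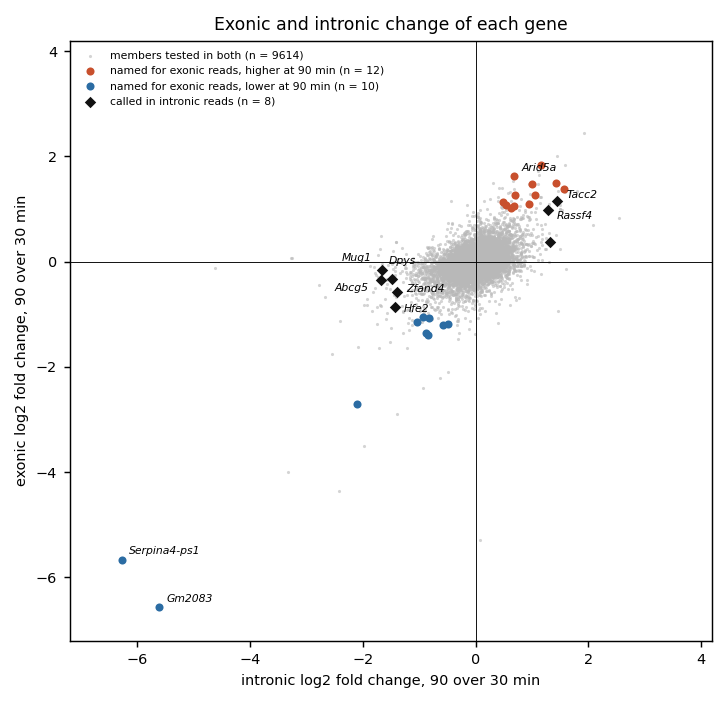
Intronic (x axis) against exonic (y axis) log2 fold change of 90 over 30 min for the 9614 members tested in both. Grey points are all such members, red and blue points the genes named for exonic reads, and black diamonds the 8 genes called in introns. The 5 diamonds that fell lie left of 0, with exonic values of -0.15 to -0.86 below the horizontal line.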

How the data were processed

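Liver RNA of 8 libraries in 4 groups was analysed. Per the file headers, the authors deposited group means of 2 libraries, as FPKM over gene bodies (build mm9) and as an intronic signal in the same unit, with a ratio and adjusted p-value against Hypox. The submitters' processing notes name TopHat2, featureCounts and edgeR. The strand setting of the counting is not stated, so overlapping genes may share reads.

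Whole reads per library were recovered from the means, since a mean FPKM is made of 2 read counts over 2 library totals. All 18359 genes with an FPKM above 0 and all 17098 with an intronic signal were solved. Lengths that sum to the annotated span were preferred, and were found for 11503 of 11503 genes tested in both. On simulated data 442 of 442 genes were recovered from exonic and 403 of 403 from intronic values. Pool 1 cannot be told from pool 2.

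Genes with 10 or more reads in 2 or more libraries were tested with limma 3.58.1 (trended variance, all 8 libraries, 90 min minus 30 min) on log2(CPM + 0.1), scaled by median ratios over genes with a mean of 50 or more reads. Exonic reads, intronic reads and their ratio each had a fit, with two-sided p-values adjusted by Benjamini and Hochberg across its genes and calls at an adjusted p under 0.05. The value after ± is the standard error. Folds of genes with few reads are understated. Pools of 4 animals were the replicates.

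The genes compared, the lists and the tests were chosen with earlier results of these data known. Named genes were those called and, up to 12 (introns 8) per direction, those with the smallest p, a difference of 1 or more in log2, a mean of 2 CPM (introns 1) and times that do not overlap. Each list adds its called members or the one with the smallest p, and 14 GH response genes were always read. Other list members were chosen after their values were seen. Some genes that these rules name are not reported here.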

Additional observations from a re-analysis of the deposited data

How the results depend on the processing

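No paired analysis was possible because the recovered libraries carry no pool number. With library totals as the only scaling, all genes shifted by a median of 0.07 (log2) in exons and 0.17 in introns. Then 7 exonic genes were called higher, and 16 intronic genes higher and 9 lower, beside 0, 4 and 5. With a filter at a mean of 50 reads 1 intronic gene was called higher and 0 lower, without a filter or with both times fitted alone 0 and 0, and with limma-voom 1 and 0. A pseudocount of 1 CPM called 1 gene with a higher exonic over intronic ratio. Leaving out each of the 4 libraries at 30 and 90 min in turn gave 0 to 22 exonic genes higher and 0 to 12 lower, 0 to 70 intronic genes higher and 0 to 106 lower, and 0 to 1 genes with a higher ratio. The cause of these moves was not tested. Among genes never called in the full fit, the sign turned with the library left out: Lyz2 ran from -0.02 to 0.47, Socs3 from -0.18 to 0.76, Socs2 from -0.05 to 2.20, Igf1 from -0.36 to 0.77, Igfals from -0.46 to 0.40, Bcl6 from -0.22 to 0.37 and intronic Cela1 from -1.0 to 0.16. Of the values for named genes under all settings, 1281 kept direction and call, 42 gained and 53 lost the call. With 2 libraries a group the median standard error was 0.20 in exons and 0.24 in introns.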

Other observations

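Among members tested in introns, the direction varied with total intron length. In 795 genes with up to 3000 bases of intron, 27 were higher and 35 lower at 90 min at an unadjusted p under 0.05. In 994 genes with more than 100000 bases, 59 were higher and 112 lower, and the median log2 fold change was -0.04, against 0.03 in the short class. No test of this difference was run.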
